A study of Mus musculus with 9 samples.

Results

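Genes of antigen presentation by major histocompatibility complex (MHC) class I and class II molecules were compared between sorted fractions of mouse prostate cells, together with the costimulatory genes Cd80, Cd86 and Cd40. Of 35 listed symbols, 32 were found as the gene name of a probe on the array, which carried 27962 gene names in all. Of these, 31 were bright enough to be tested, out of 20002 gene names tested. They comprised 15 class II members, 13 class I members and 3 costimulatory members, each represented by its brightest tested probe over both dyes and all arrays. Ciita, Erap1 and Psme2 were not gene names on this array and are described through accessions at the end of their class. Rfx5 had 2 probes, which were well above background on 2 arrays and on 0 arrays, and it was not tested.

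Marker-positive cells, labelled stem cells, were sorted from prostates of BL6 mice as lineage-negative cells carrying CD44, CD133, Sca-1 and CD117, and were hybridised on 3 arrays. Marker-negative cells came from the same strain and tissue, were also lineage-negative, lacked all 4 surface proteins and were hybridised on 6 arrays. Every RNA was amplified before labelling with Cy5 and was set against a commercial pool of mouse RNA in Cy3, so that each value below is a log2 ratio of sample to pool. The ratio of a gene can be compared between arrays but not with that of another gene. The sources used here do not name the antibodies that defined the lineage-negative gate, nor do they say whether separate animals stand behind the replicates. The p-values therefore cover only the scatter of the hybridised samples, part of which may be technical, and the number of arrays limits the precision.

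Class I molecules display peptides from the cytosol on nearly all nucleated cells, whereas class II molecules display peptides from endosomes and are made mainly by dendritic cells, macrophages and B cells. Class I heavy chains pair with B2m and receive peptides that the proteasome makes and the Tap transporter carries into the endoplasmic reticulum. Class II chains assemble on the invariant chain Cd74, which endosomal proteases trim until H2-DM exchanges its last fragment for a peptide. Interferon gamma induces both pathways, and the coactivator Ciita controls the class II genes through the RFX proteins.

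Cy5 signal was well above background for 45.5% to 69.3% of probes on the marker-positive arrays and for 47.5% to 69.5% on the marker-negative arrays. Of the sorted proteins, Ly6a (Sca-1), Cd44 and Kit (CD117) were higher in marker-positive arrays by 3.93, 2.06 and 3.45 on the log2 scale (limma, adjusted p = 0.0132, 0.0167 and 0.046), while Prom1 (CD133) had a difference of -0.44 (adjusted p = 0.765). Marker-positive replicate 3 stood apart, with a correlation of at most 0.61 with the other marker-positive arrays, which correlated at 0.923 with each other. It also had a mean log2 ratio of -0.10 over 10 luminal epithelial markers, against 2.89 and 2.94 on marker-positive replicates 1 and 2 and 3.61 to 4.92 on the marker-negative arrays. Values without replicate 3 are therefore given beside the class medians and for the members that moved by over 1.5 times without it.

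On their brightest probes, most class II members and the 13 class I members found by name had positive differences between marker-positive and marker-negative arrays, but no member passed the test on that probe. Erap1, found by accession, and the dimmer probes of H2-K1 and Tapbp had negative differences. In limma's moderated test adjusted over all tested probes, 0 of 15 class II, 0 of 13 class I and 0 of 3 costimulatory members were called at an adjusted p of 0.05, where 1.57% of all genes tested were called higher and 1.68% lower. At an unadjusted p under 0.05, 3 class II members (H2-Ob, Ctsl and Ifi30), 0 class I members and 2 costimulatory members (Cd80 and Cd40) were higher and 0 members were lower. The same threshold took 9.73% of all genes as higher and 9.81% as lower. Among the members counted, Cd80 was bright enough to be tested only through the marker-positive arrays. The median difference, marker-positive minus marker-negative, was 1.04 over class II, 0.66 over class I and 1.16 over the costimulatory members, beside -0.01 over all genes tested. Differences were positive for 11 class II members, 13 class I members and 3 costimulatory members, against 48.9% of all genes. Without marker-positive replicate 3, 10 of 15 class II, 12 of 13 class I and 2 of 3 costimulatory differences were positive, with medians of 0.59, 0.64 and 1.41, and 20 of the 31 members moved by over 1.5 times. Without marker-negative replicate 2, 10 of 15 class II and 13 of 13 class I differences were positive, with medians of 0.64 in both classes. In sorted bulk RNA, fewer cells of a type and less RNA per cell cannot be told apart.

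**Figure D1:**
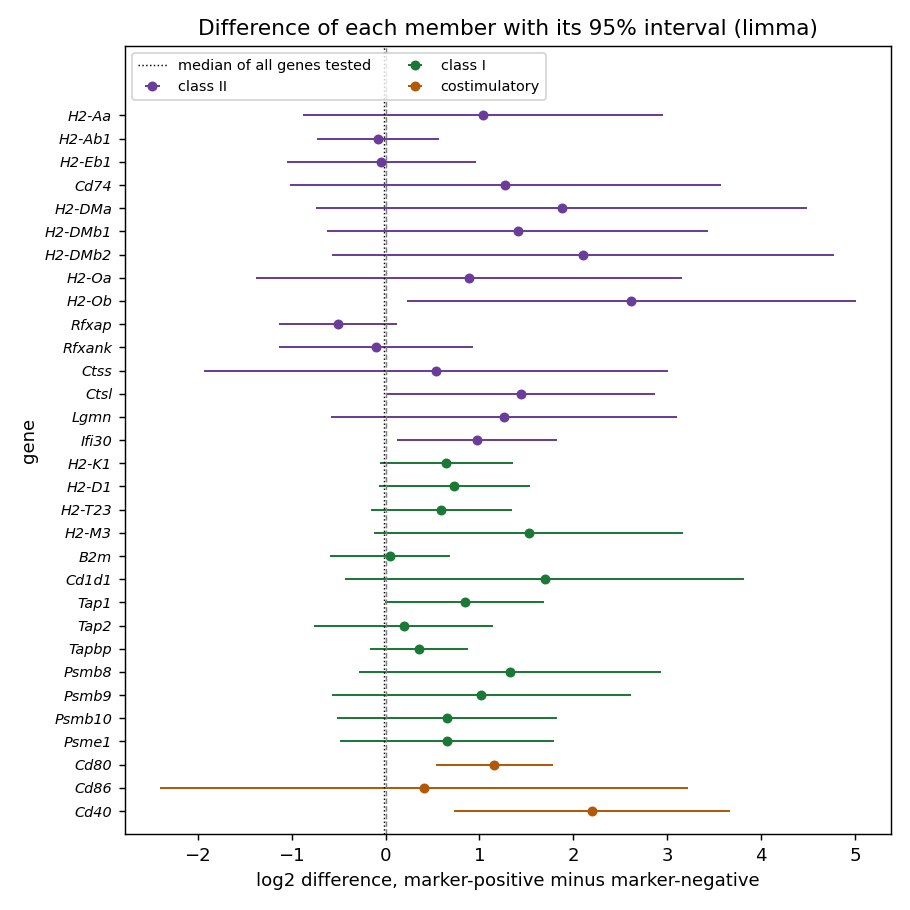
Log2 difference of each of the 31 tested members, marker-positive minus marker-negative, with bars giving limma's 95% confidence interval (3 against 6 arrays). Points are coloured by class, the dashed line marks 0 and the dotted line the median of all genes tested. Most points lie right of 0, and the intervals of H2-Ob, Ctsl, Ifi30, Cd80 and Cd40 exclude 0 before adjustment. Cd80 was bright enough to be tested only through the marker-positive arrays.

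The class II chains exceeded the RNA pool in both fractions. H2-Aa, H2-Ab1 and H2-Eb1 encode the I-A alpha, I-A beta and I-E beta chains, and their ratios were above 0 on all 9 arrays, as those of 28.2% of all genes were. Their promoters are shown because class II genes are known to share an X box and a Y box, bound by RFX and by NF-Y. The part of these boxes in the values of the arrays was not tested. RefSeq windows of build GRCm38.p6 were available for 27 of the 35 members, and the 150 bases before the start of H2-Aa, chr17:34287824-34287973 (minus strand), and of H2-Eb1, chr17:34305717-34305866 (plus strand), read 5′ to 3′ as follows, with a Y box (CTGATTGG) and the core of an X box (CTAGNAAC) in capitals.
H2-Aa: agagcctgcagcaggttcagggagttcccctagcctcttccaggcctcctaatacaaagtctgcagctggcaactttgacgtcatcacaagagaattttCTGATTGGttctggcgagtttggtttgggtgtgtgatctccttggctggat
H2-Eb1: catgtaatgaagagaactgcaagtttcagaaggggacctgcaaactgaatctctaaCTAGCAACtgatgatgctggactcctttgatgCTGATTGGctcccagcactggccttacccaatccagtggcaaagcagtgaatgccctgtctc
The 250 bases before the start were searched on both strands, with motifs chosen with these sequences in view. Windows were available for 13 of 17 class II and 13 of 15 class I members. The Y box letters were found for 3 class II members (H2-Aa, H2-Eb1 and H2-Oa), 4 class I members (H2-D1, H2-T23, Psmb9 and Tap1) and 3.83% of 32851 promoter windows. The windows of Psmb9 and Tap1 overlap, and their matches are the same bases, so these members share a single site. The X box core was found for 3 class II members (H2-Eb1, H2-DMb1 and H2-Ob), 0 class I members and 3.06% of windows. A match describes the exact letters only, and the motifs do not overlap in the windows printed. The sequences of H2-DMb1 and H2-Ob printed further on hold the Y box letters except the first, which was not counted as a match. Likewise the H2-Aa sequence above holds the X box core with g in place of a (ctggcaac), also not counted. A missing match therefore does not show that a promoter lacks the box.

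H2-Aa had log2 ratios of 6.34, 6.09 and 7.60 on marker-positive replicates 1 to 3, against 5.64, 2.86, 4.94, 6.66, 6.61 and 7.10 on marker-negative replicates 1 to 6. The groups overlapped, marker-negative replicate 2 had the lowest value, and the difference was 1.04 ± 0.86 (SE; limma, adjusted p = 0.557), or 0.58 without marker-positive replicate 3. The main probe of H2-Ab1, at chr17:32346939-32346998 of build mm7, had ratios of 4.96, 4.82 and 5.38 in marker-positive arrays and 4.78, 4.48, 5.80, 5.30, 5.35 and 5.08 in marker-negative arrays. That difference of -0.08 ± 0.29 (SE; limma, adjusted p = 0.925) came with SDs of 0.29 in marker-positive and 0.46 in marker-negative arrays, the smallest of the 3 chains. The other 3 probes of H2-Ab1 gave differences of 0.72 to 1.29, each with an adjusted p over the threshold. H2-Eb1 had ratios of 6.70, 6.46 and 7.17 in marker-positive arrays and 6.72, 5.29, 7.46, 6.86, 7.35 and 7.25 in marker-negative arrays, a difference of -0.04 ± 0.45 (SE; limma, adjusted p = 0.974). Without marker-positive replicate 3 the differences of H2-Ab1 and H2-Eb1 were both -0.24. The partner chain of H2-Eb1, H2-Ea, is known to be defective in C57BL/6 mice, and its probe did not pass the detection filter.

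Cd74, the invariant chain, had ratios of 3.98, 3.36 and 5.73 in marker-positive arrays and 2.88, -0.13, 2.46, 4.93, 3.53 and 4.79 in marker-negative arrays. Its difference of 1.28 ± 1.03 (SE; limma, adjusted p = 0.546) was about as large as its error, and the groups overlapped. Again marker-positive replicate 3 was highest and marker-negative replicate 2 lowest, and without that marker-positive array the difference was 0.59.

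**Figure D2:**
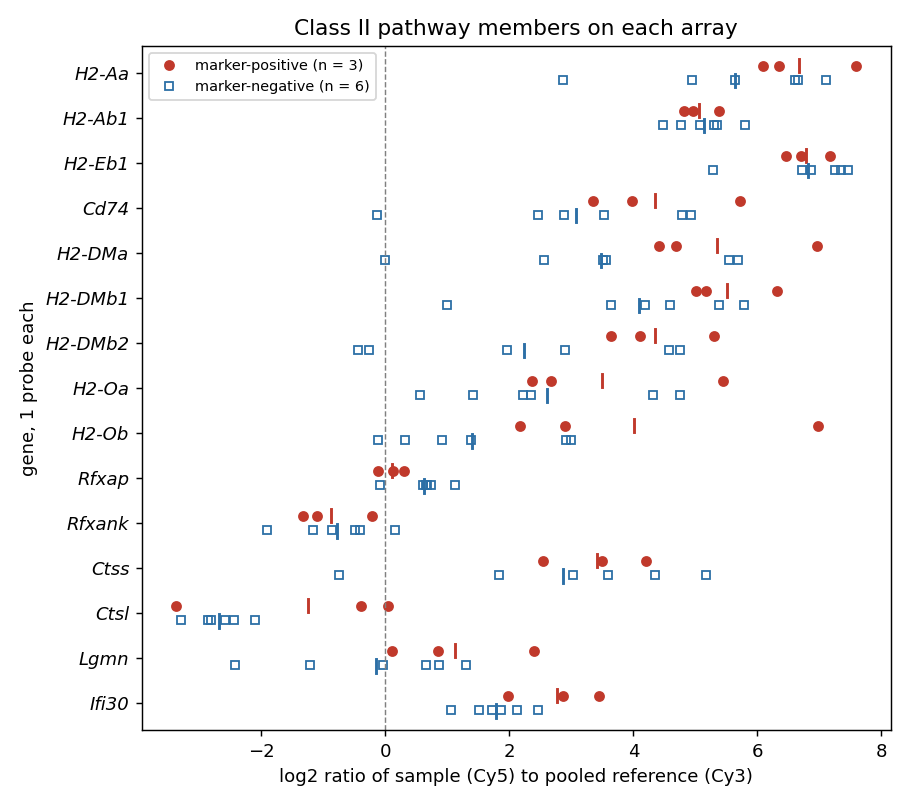
Log2 ratio of sample to pooled RNA for the 15 tested class II members, 1 probe each, with filled circles for the 3 marker-positive arrays, open squares for the 6 marker-negative arrays and vertical ticks for group means. Every class II member overlaps between the groups, and the squares farthest left for H2-Aa, Cd74, H2-DMa, H2-DMb1 and Ctss are marker-negative replicate 2.

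All 6 members of class II peptide loading, Cd74 included, had positive differences, with a median of 1.64, and 0 of 6 were called. The 4 members of endosomal processing had a median of 1.12. Without marker-positive replicate 3 the order turned, with medians of 1.03 over loading (5 of 6 positive) and 1.20 over processing. H2-DMa and H2-DMb1 encode the H2-DM heterodimer, which catalyses peptide loading, and H2-DMb2 is a second beta chain gene. H2-DMa averaged 5.35 ± 1.41 in marker-positive arrays (SD, n = 3) and 3.47 ± 2.10 in marker-negative arrays (SD, n = 6), a difference of 1.88 (limma, adjusted p = 0.422) that was 1.07 without marker-positive replicate 3. H2-DMb1 averaged 5.50 ± 0.71 in marker-positive arrays and 4.10 ± 1.71 in marker-negative arrays (SD, n = 3 and 6), a difference of 1.41 (limma, adjusted p = 0.439).

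H2-DMb2 was measured by 2 probes. The brighter, at chr17:32228917-32228976, lists accessions of both H2-DMb1 and H2-DMb2, so that these genes cannot be told apart on it, and it gave a difference of 2.10 ± 1.20 (SE; limma, adjusted p = 0.375). The dimmer probe, at chr17:32228108-32228168, is annotated to H2-DMb2 alone and was well above background on 3 of 3 marker-positive arrays and 1 of 6 marker-negative arrays. It read 1.87, 1.49 and 2.91 in marker-positive arrays and 0.20, 0.19, 0.00, 0.32, 0.09 and 1.11 in marker-negative arrays. On this probe H2-DMb2 was called higher in marker-positive arrays, with a fitted difference of 1.77 ± 0.33 (SE; limma, adjusted p = 0.021). The probe passed the detection filter only through the marker-positive arrays, so the fitted difference is set against signal at background on 5 marker-negative arrays. With marker-negative Cy5 levels held at no less than the lowest detected signal of their array, H2-DMb2 was 3.41-fold higher. That is a value of Cy5 alone and is open to dye bias. The limit moved the marker-negative mean only from 6.57 to 6.60 on the log2 scale, so the fold is no firm lower bound. The call was lost with the scanner's processed signals, with Cy5 alone, with slide as a fixed block and without marker-positive replicate 1, where adjusted p ran up to 0.155.

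H2-Oa and H2-Ob encode H2-O, which restrains H2-DM and is known mainly from B cells. H2-Ob read 2.17, 2.90 and 6.98 in marker-positive arrays, against a lowest value of -0.12, a median of 1.15 and a highest value of 2.99 in marker-negative arrays. Its difference of 2.62 ± 1.07 (SE; limma, adjusted p = 0.216) was the largest on the members' main probes and rested on marker-positive replicate 3, since it was 1.14 without that array (adjusted p = 0.44). H2-Oa read 2.36, 2.67 and 5.44 in marker-positive arrays and had a median of 2.29 in marker-negative arrays, with a difference of 0.89 ± 1.02 (SE; limma, adjusted p = 0.693). Both H2-O genes were thus highest on the array that stood apart from its group, and without it the difference of H2-Oa was -0.09. H2-DMb1 and H2-Ob carry the X box core, in capitals in the 150 bases before their starts at chr17:34153041-34153190 (plus strand) and chr17:34238755-34238904 (plus strand) (GRCm38.p6, RefSeq).
H2-DMb1: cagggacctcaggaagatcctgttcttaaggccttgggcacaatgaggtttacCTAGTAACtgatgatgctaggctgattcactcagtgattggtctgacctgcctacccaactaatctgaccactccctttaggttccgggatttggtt
H2-Ob: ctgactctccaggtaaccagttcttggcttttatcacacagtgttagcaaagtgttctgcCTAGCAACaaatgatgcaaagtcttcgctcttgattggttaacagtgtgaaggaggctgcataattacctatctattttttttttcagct

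The proteases and the reductase of the endosomal pathway all had positive differences, between 0.54 and 1.44. Ctsl, a cathepsin that trims the invariant chain in thymic epithelium, read 0.04, -0.39 and -3.38 in marker-positive arrays, against values from -3.30 to -2.10 in marker-negative arrays. Marker-positive replicates 1 and 2 lay above all marker-negative arrays and replicate 3 below them all. The difference was 1.44 ± 0.64 (SE; limma, adjusted p = 0.252), and without replicate 3 Ctsl was higher in marker-positive arrays by 2.51 (limma, adjusted p = 0.00339). Ifi30, the thiol reductase that opens disulfide bonds of antigens, read 2.87, 1.98 and 3.45 in marker-positive arrays, against a lowest value of 1.05, a median of 1.80 and a highest value of 2.46 in marker-negative arrays. Its difference of 0.98 ± 0.38 (SE) did not pass the adjusted test (limma, adjusted p = 0.196) and was 0.63 without replicate 3. Lgmn, an asparaginyl endopeptidase, and Ctss, the cathepsin that removes most of the invariant chain in dendritic cells and B cells, had differences of 1.26 and 0.54 with errors of 0.83 and 1.11 (SE), and without replicate 3 that of Ctss was 0.15.

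The regulators found by name had differences below 0. Rfxap and Rfxank, subunits of the RFX complex, had differences of -0.51 ± 0.28 and -0.10 ± 0.46 (SE; limma, adjusted p = 0.358 and 0.939), and that of Rfxank was -0.43 without marker-positive replicate 3. A second, dimmer probe of Rfxap gave 0.92 (adjusted p = 0.28), so its probes differed in sign. Ciita, found through its accession under the older name C2ta, read 0.10, 0.09 and 4.01 in marker-positive arrays, against -0.67 to 1.41 in marker-negative arrays. The difference was 1.15 ± 0.85 (SE; limma, adjusted p = 0.508), and marker-positive replicate 3 was the single high array, without which the difference was -0.15.

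The class I members had a median difference of 0.66, beside 1.04 over all class II members and 1.64 over the class II loading genes. Without marker-positive replicate 3 these medians were 0.64, 0.59 and 1.03. The contrasts were not tested, and single members such as Cd1d1 and H2-M3 did not follow them. The classical heavy chain H2-D1 read 2.29, 2.14 and 1.29 in marker-positive arrays and 1.46, 0.96, 0.14, 1.66, 1.52 and 1.31 in marker-negative arrays, a difference of 0.73 ± 0.36 (SE; limma, adjusted p = 0.299). Its second probe is described in the files as a thymus-leukemia antigen transcript and gave 0.42. B2m, the light chain shared by class I molecules, read 1.02, 1.23 and 1.46 in marker-positive arrays and 0.94, 1.18, 0.65, 1.93, 0.88 and 1.58 in marker-negative arrays. Its difference was 0.05 ± 0.29 (SE; limma, adjusted p = 0.956; 95% interval -0.59 to 0.68), and its other probes gave 0.06 and 0.94. Without marker-positive replicate 3 the difference on the main probe was -0.07. On its main probe the light chain thus had a difference near 0, while the brightest probes of the 5 heavy chains, H2-K1 and those below included, had positive ones. That contrast was not tested. The interval of B2m takes in the differences of H2-K1 (0.65) and H2-T23 (0.60), but not those of H2-D1, H2-M3 and Cd1d1.

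H2-T23, which presents leader peptides of other class I chains, read 0.67, 0.34 and -0.11 in marker-positive arrays and -0.22, -0.55, -1.23, 0.37, -0.19 and 0.05 in marker-negative arrays, a difference of 0.60 ± 0.34 (SE; limma, adjusted p = 0.371). H2-M3, which presents formylated peptides of bacteria and mitochondria, read 1.61, 1.5 and 2.47 in marker-positive arrays and 0.20, -0.54, -1.80, 2.02, 1.02 and 1.11 in marker-negative arrays, a difference of 1.52 ± 0.73 (SE; limma, adjusted p = 0.29). Cd1d1, which presents lipids to natural killer T cells, read 1.82, 0.93 and 1.36 in marker-positive arrays and -0.19, -3.06, -1.52, 1.66, -0.37 and 1.54 in marker-negative arrays, a difference of 1.69 ± 0.95 (SE; limma, adjusted p = 0.368). For all 3 genes marker-negative replicates 2 and 3 were the lowest arrays, marker-negative replicate 4 was the highest of its group, and the groups overlapped.

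H2-K1, the other classical heavy chain, was measured by 3 probes that went in opposite directions. The brightest, at chr17:32074445-32074504, read 1.24, 1.04 and 0.42 in marker-positive arrays and 0.49, 0.23, -0.63, 0.83, 0.44 and 0.16 in marker-negative arrays, a difference of 0.65 ± 0.32 (SE; limma, adjusted p = 0.295). The probe at chr17:32077868-32078115 read 0.19, -0.19 and 0.10 in marker-positive arrays and 2.32, 2.08, 3.03, 1.35, 2.40 and 2.06 in marker-negative arrays. On that probe H2-K1 was lower in marker-positive arrays by 2.17 on the log2 scale (difference -2.17 ± 0.33, SE; limma, adjusted p = 0.00912), with every marker-positive array below every marker-negative one. The probe at chr17:32077678-32077737 read 1.59, 1.12 and 1.36 in marker-positive arrays and 2.80, 2.70, 2.93, 2.36, 2.71 and 2.94 in marker-negative arrays, and was lower by 1.38 (difference -1.38 ± 0.21, SE; limma, adjusted p = 0.00984).

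The lower pair of H2-K1 probes lay 3364 and 3174 bases from the brightest one, toward the 5′ end of the gene, which runs on the minus strand. None of the 3 matched a current RefSeq accession, class I heavy chains are a family of near-identical sequences, and neither probe sequences nor exons of build mm7 were used here, so what each probe binds was not tested. Both lower calls were lost with median centring, with slide as a fixed block and without marker-positive replicate 2, where their adjusted p-values ran up to 0.315. On slides 1 and 2, the slides that carried both groups, the differences of this pair were -2.13 and -1.21 (slide 1) and -1.91 and -1.41 (slide 2), and those of the brightest probe 0.75 and 0.51. The mean of the 3 probes gave a difference of -0.97 (limma, adjusted p = 0.0209), so the sign reported for H2-K1 depends on the probe rule.

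**Figure D3:**
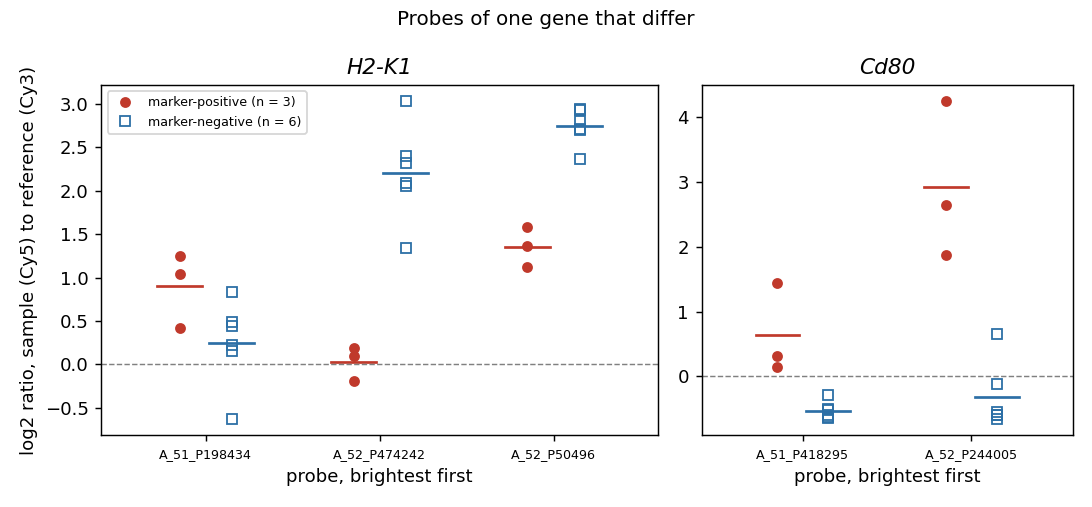
Log2 ratios of the 3 probes of H2-K1 and the 2 probes of Cd80, brightest first, on the 3 marker-positive arrays (filled circles) and the 6 marker-negative arrays (open squares), with horizontal lines for group means. The mean of marker-positive arrays lies above that of marker-negative arrays on the brightest H2-K1 probe and on both Cd80 probes, and below it on the other 2 H2-K1 probes.

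Promoters of H2-K1 and B2m are shown as those of the heavy chain whose probes disagreed and of the light chain whose main difference was near 0, both known to respond to NF-kB and interferon. The 150 bases before the start of H2-K1, chr17:34000348-34000497 (minus strand), hold an NF-kB site (GGGGATTCC, also found for H2-D1 and in 0.213% of windows). Those of B2m, chr2:122147537-122147686 (plus strand), hold the core of an interferon-stimulated response element (GAAANNGAA, also found for H2-T23, Erap1 and Ctss and in 7.13% of windows). The core was not matched for H2-K1, but only exact letters were searched, so its promoter cannot be said to lack the element. Matches are in capitals (GRCm38.p6, RefSeq).
H2-K1: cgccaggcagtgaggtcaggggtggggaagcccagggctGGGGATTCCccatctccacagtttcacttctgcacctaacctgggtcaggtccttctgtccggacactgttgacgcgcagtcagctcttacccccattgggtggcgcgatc
B2m: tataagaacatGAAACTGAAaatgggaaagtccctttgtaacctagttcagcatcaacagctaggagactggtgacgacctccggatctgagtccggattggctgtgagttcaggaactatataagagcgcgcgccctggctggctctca

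The 7 class I members of peptide supply found by name had positive differences, and 0 of them were called (limma). Of the transporter subunits, Tap1 read -1.10, -1.31 and -0.22 in marker-positive arrays, against a lowest value of -2.40, a median of -1.83 and a highest value of -1.01 in marker-negative arrays. Its difference was 0.84 ± 0.38 (SE; limma, adjusted p = 0.257), or 0.51 without marker-positive replicate 3. Tap2 and Tapbp, the chaperone tapasin that bridges Tap and class I, had differences of 0.19 and 0.35, which were 0.01 and 0.64 without that array, and the second probe of Tapbp gave -0.37.

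The interferon-inducible proteasome subunits Psmb8, Psmb9 and Psmb10 had differences of 1.33, 1.02 and 0.66 with errors of 0.72, 0.71 and 0.52 (SE). Psme1, a subunit of the PA28 proteasome activator, had a difference of 0.66 ± 0.51 (SE). All 4 were highest on marker-positive replicate 3, where Psmb9 reached 4.14, against 1.37 and 1.87 on the other marker-positive arrays and 0.01 to 2.72 on the marker-negative arrays. Without that array the differences of Psmb8, Psmb9, Psmb10 and Psme1 were 0.75, 0.18, 0.19 and 0.14. Psme2, found only on 2 probes named Psme2b-ps that list its accession, had differences of 0.56 and 0.68 (adjusted p = 0.425 and 0.301), which were 0.15 and 0.27 without that array. Erap1, the aminopeptidase that trims class I peptides, was found under the older name Arts1 and had a difference of -0.62 ± 0.30 (SE; limma, adjusted p = 0.297).

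**Figure D4:**
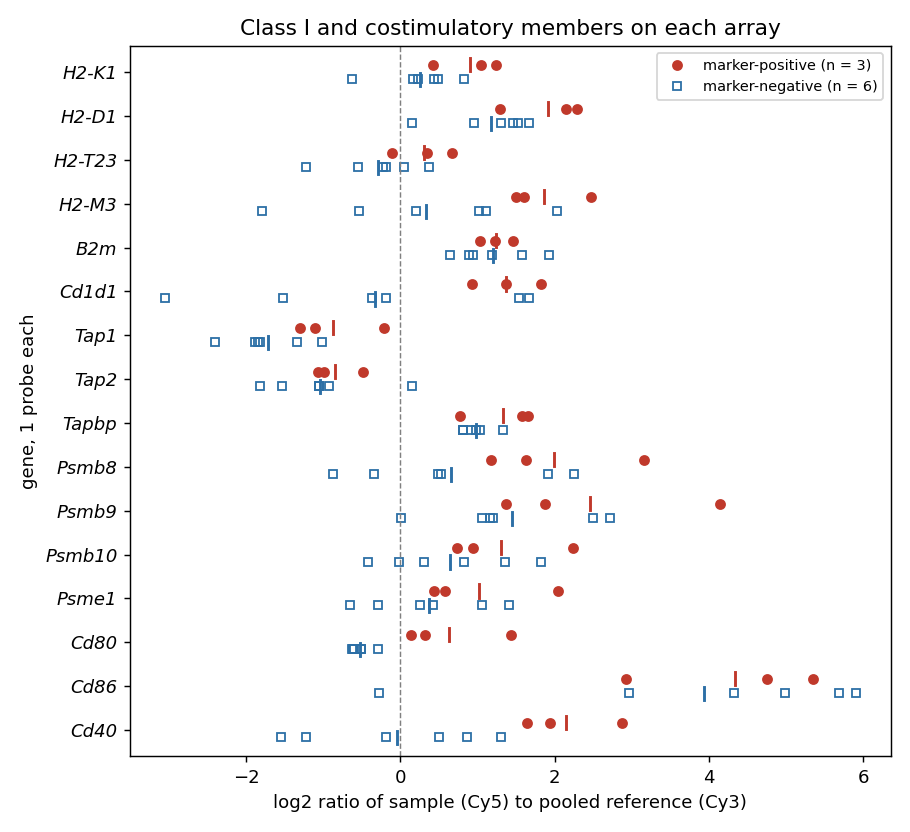
Log2 ratio of sample to pooled RNA for the 13 tested class I members and the 3 costimulatory members, 1 probe each, with filled circles for the 3 marker-positive arrays, open squares for the 6 marker-negative arrays and vertical ticks for group means. Cd80 and Cd40 are the only genes drawn whose groups do not overlap.

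The costimulatory genes Cd80 and Cd40 were the only members whose groups did not overlap on the main probe, both with the marker-positive arrays above, as for 5.13% of all genes tested, and 0 members lay wholly below, as 6.47% of all genes did. Cd80, a ligand of CD28 and CTLA-4, read 1.44, 0.32 and 0.14 in marker-positive arrays and -0.60, -0.63, -0.29, -0.62, -0.51 and -0.52 in marker-negative arrays. This probe, at chr16:38202894-38202954, was well above background on 3 of 3 marker-positive and 2 of 6 marker-negative arrays, and its difference of 1.16 ± 0.28 (SE; limma, adjusted p = 0.0532) fell just outside the threshold. Cd80 passed in 8 of 23 alternatives, among them Cy5 alone (adjusted p = 0.0484) and the fit without marker-positive replicate 3 (adjusted p = 0.0238). Not all of these were of the main probe. The mean of a gene's probes took in the second probe, and the probe brightest in Cy5 was the second one. The second Cd80 probe, at chr16:38181436-38181495 and 21399 bases away, read 1.87, 2.64 and 4.25 in marker-positive arrays and -0.66, -0.55, -0.11, -0.60, 0.66 and -0.59 in marker-negative arrays. On it Cd80 was called higher in marker-positive arrays, with a fitted difference of 3.23 ± 0.48 (SE; limma, adjusted p = 0.00843), and it was detected on 3 of 3 marker-positive and 1 of 6 marker-negative arrays. With the lower limit on marker-negative Cy5 levels used for H2-DMb2, Cd80 was 8.52-fold higher on this probe. Here too the limit moved the marker-negative mean little, from 6.49 to 6.59 on the log2 scale, so the fold is no firm lower bound. Both Cd80 probes passed the detection filter only through the marker-positive arrays, so the differences on them are set against signal at background on most marker-negative arrays. Lack of overlap on them adds nothing to the test.

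Cd40, the receptor through which helper T cells activate antigen-presenting cells, read 2.87, 1.93 and 1.64 in marker-positive arrays and -1.22, -1.55, 0.87, 0.50, -0.19 and 1.30 in marker-negative arrays. Its difference of 2.20 ± 0.66 (SE), or 4.59-fold, did not pass the adjusted test (limma, adjusted p = 0.104). Cd86, the other CD28 ligand, read 4.75, 2.92 and 5.35 in marker-positive arrays and 4.33, -0.28, 2.97, 5.90, 4.98 and 5.68 in marker-negative arrays, a difference of 0.41 ± 1.26 (SE; limma, adjusted p = 0.905) that was -0.09 without marker-positive replicate 3. Cd86 followed the class II genes in having its low value on marker-negative replicate 2.

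In the authors' deposited table, whose log2 values run non-stem minus stem and are turned round here, all 31 main probes had the same sign as above. Its adjusted p was under 0.05 for 3 of them, H2-Ob (2.61, adjusted p = 0.0285), Cd80 (1.17, adjusted p = 0.0127) and Cd40 (2.29, adjusted p = 0.0435), beside 5.58% of all probes in that table. The authors' deposited table also called both lower probes of H2-K1 (-2.14 and -1.36), the H2-DMb2 probe (1.78) and the second Cd80 probe (3.23).

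Members varied more among arrays of a group than most genes did. The median SD across the 6 marker-negative arrays was 1.42 over class II members and 0.675 over class I members, beside 0.469 over all genes tested, and 12 of 15 class II and 12 of 13 class I members lay above that last value. Across the 15 class II members, marker-negative replicate 2 was the lowest marker-negative array for 10, and replicate 6 the highest for 7. Among marker-positive arrays, replicate 3 was highest for 12 and replicate 2 lowest for 10. Across the 13 class I members, marker-negative replicates 2 and 3 were lowest for 6 and 5, and marker-positive replicate 3 was highest for 8, but the other ends differed from class II. Marker-negative replicate 4 was highest for 6 class I members, and marker-positive replicates 1, 2 and 3 were lowest for 6, 3 and 4.

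Markers of leukocytes moved with these genes from array to array. The mean log2 ratio over 15 class II members was 3.23, 2.88 and 4.06 on the marker-positive arrays and 2.22, 0.66, 1.84, 3.56, 2.70 and 3.48 on the marker-negative arrays. Over 8 pan-leukocyte markers, of which 0 were called, it was 2.30, 1.47 and 3.13 on the marker-positive arrays and 1.38, -0.48, 0.99, 2.90, 1.79 and 2.69 on the marker-negative arrays. Both lists were lowest on marker-negative replicate 2 and highest on marker-positive replicate 3, and both overlapped between groups.

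The 13 macrophage markers had means of 3.52 to 4.59 on marker-positive arrays and 0.16 to 3.08 on marker-negative arrays, and 4 were called higher (Mrc1, Cd163, Lyz2 and Itgam). Mrc1 and Cd163, both macrophage scavenging receptors, were well above background on 0 marker-negative arrays and passed the detection filter only through the marker-positive arrays. By contrast, C1qa, C1qb, C1qc and Tyrobp were detected on all 9 arrays. Over the other 11 macrophage markers, separated after these values were seen, the groups overlapped, with means of 3.17 to 4.25 on marker-positive and 0.21 to 3.66 on marker-negative arrays. The 7 mast cell markers had means of 2.95 to 3.93 on marker-positive and 0.12 to 2.20 on marker-negative arrays without overlap, with 4 called higher (Cpa3, Tpsb2, Fcer1a and Kit). Kit is one of the sorted proteins, and without it the means were 2.84 to 3.50 on marker-positive and 0.06 to 2.01 on marker-negative arrays. The 8 endothelial markers ran from 0.89 to 4.43 on marker-positive and from 0.37 to 1.19 on marker-negative arrays, with 2 called higher (Vwf and Ly6c1). Means of 8 measured dendritic cell markers ran from 0.84 to 2.43 on marker-positive and from 0.16 to 1.96 on marker-negative arrays, with 0 called. The 8 B cell markers ran from -0.18 to 1.22 on marker-positive and from -0.44 to 1.01 on marker-negative arrays, with 0 called, and 10 T and NK cell markers from 0.15 to 1.49 on marker-positive and from 2.55 to 5.15 on marker-negative arrays, with 6 called lower. Over all genes tested, 1.57% were called higher and 1.68% lower. The part of these cell types in the differences of class I and class II members was not tested.

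**Figure D5:**
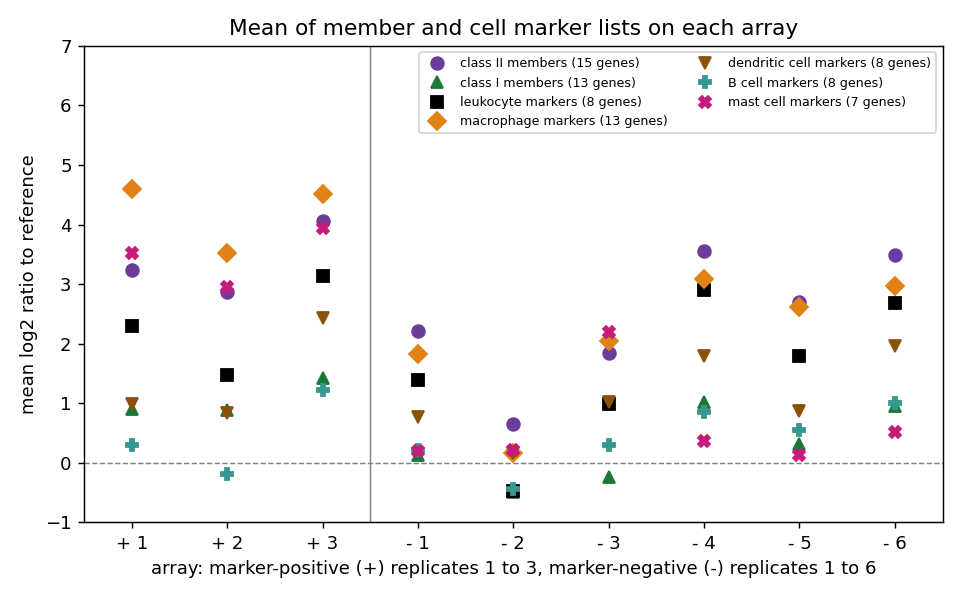
Mean log2 ratio to pooled RNA over class II members, class I members and markers of leukocytes, macrophages, dendritic cells, B cells and mast cells on each of the 9 arrays, with marker-positive replicates left of the vertical line and marker-negative replicates right of it. Class II members and leukocyte markers share their lowest array, marker-negative replicate 2, and the macrophage and mast cell lists are those drawn whose groups do not overlap, the macrophage list only with Mrc1 and Cd163 included.

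Median differences within the slides were close to those over all arrays, but on slide 2 they depended on the average of 2 unlike marker-negative arrays. Within slide 1, which held marker-positive replicate 1 and marker-negative replicate 1, the median difference was 0.95 over class II (12 of 15 positive) and 0.74 over class I (13 of 13 positive). Within slide 2, with marker-positive replicate 2 beside replicates 2 and 4 of the marker-negative cells, it was 0.95 over class II (12 of 15 positive) and 0.56 over class I (12 of 13 positive). On slide 2 the class II mean of marker-positive replicate 2 was 2.88, between 0.66 on marker-negative replicate 2 and 3.56 on marker-negative replicate 4. The class I mean was 0.89, between -0.50 and 1.02 on the same arrays. Each group on a slide was thus 1 array, or 2 for the marker-negative cells of slide 2, and there was no test.

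Of 54 further genes of the pathways, 41 were measured, of which 1 was higher and 1 lower (limma), where 1.57% of all genes tested were higher and 1.68% lower. Fcgrt, a class I-like chain that pairs with B2m and carries antibodies rather than peptides, read 1.83, 0.72 and -0.06 in marker-positive arrays and -1.83, -2.98, -1.92, -1.42, -1.37 and -2.55 in marker-negative arrays. It was higher in marker-positive arrays by 2.84 ± 0.48 (SE; limma, adjusted p = 0.0148), a 7.17-fold difference without overlap. H2-Bl, a class I heavy chain gene, read 0.54, 0.67 and 1.09 in marker-positive arrays and 2.36, 1.89, 2.66, 1.90, 2.36 and 2.73 in marker-negative arrays. It was lower by 1.54 (difference -1.54 ± 0.30, SE; limma, adjusted p = 0.0249), the direction of the lower pair of H2-K1 probes.

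Both calls were lost with median centring, with slide as a fixed block and without marker-positive replicate 1 or 2, and that of H2-Bl also without marker-negative replicate 1 or 5. Of the 41 genes, 25 had positive and 16 negative differences, with a median of 0.32. By role, 7 genes of class II turnover and endosomal proteolysis had a median difference of 1.25, 10 genes of transcription and interferon signalling 0.36, 4 further costimulatory genes 0.59, and 9 genes of class I loading and constitutive proteasomes -0.34, with 0 called in any of these 4 roles (limma). At an unadjusted p under 0.05, 4 genes of these roles were higher (Ctsb, Ctsh, Irf1 and Cd274) and 2 lower (Calr and Pdia3), names that were taken after their values were seen.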

How the data were processed

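The 9 arrays are of Agilent mouse design 014868. In the deposited scanner files each spot has an intensity for either dye, not normalized, beside processed intensities already subtracted and dye-normalized by the scanner software, written by Feature Extraction 10.7.3.1 per the file headers (10.7 per the submitters' processing notes). The authors' deposited table gives log2 differences, p-values, score columns and signed folds, and the sources used here do not name the steps behind them.

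Background was removed from mean intensities by normexp (median local background, offset 50) and each array was normalized by loess in limma 3.58.1 under R 4.3.3. Control and outlier spots carried no weight in the loess, outliers were then dropped, and a probe's spots were averaged. Tests covered 28334 of 41174 probes, those with Cy5 well above background on 3 arrays or more, and 47 of the 50 member probes. The 3 marker-positive arrays were compared with the 6 marker-negative arrays by limma's moderated two-sided test with trend and robust variance, adjusted by Benjamini-Hochberg over all tested probes, and called at 0.05. SE is the moderated standard error. All 35 listed members are accounted for. Values on each array are given for class I and class II chains, Cd74, B2m and members called or not overlapping on any probe, and further pathway genes are named where called. The members, lists, motifs and tests were chosen with earlier results of these data known.

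The files place the arrays on 5 slides. Slides 1 and 2 held both groups, slide 3 marker-negative replicates 3 and 6, and slides 4 and 5 marker-negative replicate 5 and marker-positive replicate 3. Replicate numbers follow the order of deposit. Probe coordinates are those of the files, build mm7 (NCBI35) per the file headers, and promoter windows are RefSeq's, GRCm38.p6. The procedure was tested on simulated data. Alternatives covered background, normalization, detection, variance, weights, slide, probe and naming rules and each array left out.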

Additional observations from a re-analysis of the deposited data

Results flagged for a closer look

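Of 35 sets of 6 marker-negative values examined for an isolated array, 3 had a gap beyond Dixon's 95% limit, and chance alone passes it in about 1 of 20 sets. H2-Eb1 read 5.29 on marker-negative replicate 2, below the 6.72 to 7.46 of the other marker-negative arrays. The dimmer probe of H2-DMb2 read 1.11 on marker-negative replicate 6, above the 0.0005 to 0.323 of the others. The main probe of Cd80 read -0.29 on marker-negative replicate 3, above the -0.63 to -0.51 of the others.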

How the results depend on the processing

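Each count of members called was 0 with the settings used above, and class II and costimulatory members lower stayed at 0 under all 24 alternatives. Array weights, which gave marker-positive replicate 3 a weight of 0.24, called 1 class II (Ctsl), 4 class I (H2-K1, H2-D1, H2-T23 and Tapbp) and 2 costimulatory members (Cd80 and Cd40) higher, with 6 further pathway genes higher and 4 lower. Slide as a fixed block called 1 class II member higher (Ctsl) and 0 further pathway genes in either direction, and median centring likewise called 0 further pathway genes higher and 0 lower. The mean of a gene's probes called 1 class I member lower (H2-K1, -0.97, the sign opposite to that of its brightest probe) and 3 further pathway genes lower, and detection in both channels on all arrays 2 further pathway genes higher. Cd80 was the 1 costimulatory member called higher with an offset of 16, with processed signals, with Cy5 alone, with slide as a random block, with the mean of a gene's probes and with the probe brightest in Cy5. With each array left out in turn, class II members higher ran from 0 to 1, costimulatory members higher from 0 to 1, further pathway genes higher from 0 to 2 and lower from 0 to 1. The 1 call in class II (Ctsl) and the 1 costimulatory call (Cd80) came without marker-positive replicate 3. The median difference ran from 0.59 (without marker-positive replicate 3) to 1.43 (Cy5 alone) over class II, from 0.53 to 0.97 over class I and from -0.08 to 0.05 over all genes. Over the whole array, genes called higher ran from 99 without marker-positive replicate 1 (92 lower) to 2233 with array weights. Genes called lower ran from 21 with slide as a fixed block (129 higher) to 2275 with array weights. Median centring called 141 higher and 88 lower. In 32 cases a member changed sign with neither value called. The cause was not tested. No paired analysis was possible because the labels give no replicate numbers, and slide was fitted as a block in its place. Leaving out Kit from the mast cell markers, or 2 markers undetected in marker-negative arrays from the macrophage list, was chosen after seeing the data. Signal close to background limits Cd80, the dimmer H2-DMb2 probe and Rfx5.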

Other observations

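Cd274, an inhibitory ligand of T cells and not among the members, read 2.57, 2.94 and 2.25 in marker-positive arrays and 0.92, -0.95, -0.40, 1.30, 1.36 and 0.72 in marker-negative arrays. Its groups did not overlap, and the difference was 2.10 ± 0.54 (SE; limma, adjusted p = 0.0688), on a gene taken after its values were seen. H2-T22, a non-classical class I chain gene, had a difference of -0.70 ± 0.25 (SE; limma, adjusted p = 0.161), also without overlap.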
